A study of Homo sapiens with 6 samples.

Results

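Immediate early and stress-induced regulators, a MAP kinase phosphatase and clock genes are described here in LX2 cells treated with GDF15. The genes are EGR2, JUNB, CEBPD, DUSP5, PER1 and NR1D1, 6 of the 453 features in the authors' deposited table of GDF15 treated against untreated cells. Each was selected on its values in that same contrast. The authors' table holds only features with an unadjusted p under 0.05, and the genes were picked by name from among its rows. Their direction and size are therefore given as a description, with no test.

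LX2 cells are an immortalized line made from human hepatic stellate cells, the liver cells that turn into matrix-producing myofibroblasts after injury. GDF15 is a secreted stress cytokine of the TGF-beta superfamily. Cells received recombinant GDF15 at 1 ug/ml for 24 h or no treatment, and poly(A) RNA of 3 libraries a group, numbered 1 to 3, was sequenced. Nothing in the labels says that they were separate cultures, so their spread may be technical. The labels give liver as the tissue and epithelial as the cell type, while the design text names stellate cells. Of 26 marker genes of stellate, epithelial, endothelial and macrophage cells, 0 were among the listed features, so the label was not checked here.

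Immediate early genes are transcribed within minutes of a signal, without new protein synthesis, and many of their products are transcription factors that are quickly degraded. EGR2 is a zinc finger activator of this class, JUNB a component of the dimeric AP-1 factors, and CEBPD a C/EBP leucine zipper factor induced in the acute-phase response. DUSP5 is induced by ERK signalling and removes phosphate from ERK in the nucleus, a negative feedback. PER1 and NR1D1 belong to the circadian clock. The CLOCK and BMAL1 activators drive both through E-box elements, PER1 protein then represses those activators, and NR1D1, also called REV-ERB alpha, represses the BMAL1 gene.

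All 6 genes had higher mean levels with GDF15, from 1.34-fold for NR1D1 to 2.61-fold for CEBPD, and differed in which libraries carried the difference. EGR2 was at least 1.76 times higher in each GDF15 library than in any untreated one. It had only 15 to 41 reads per library, and the counting intervals of the nearest libraries of the groups overlapped. JUNB and CEBPD stood highest in GDF15 replicate 1, whereas PER1 and NR1D1 were level across the GDF15 libraries and lowest in untreated replicate 2. DUSP5 was high in untreated replicate 1 as well as with GDF15. By the authors' deposited table, 100% of the 453 features had an unadjusted p under 0.05 and 0% an adjusted p under 0.05, the adjusted p being 0.911 throughout. In bulk RNA, a larger share of expressing cells and more RNA per cell cannot be told apart.

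**Figure D1:**
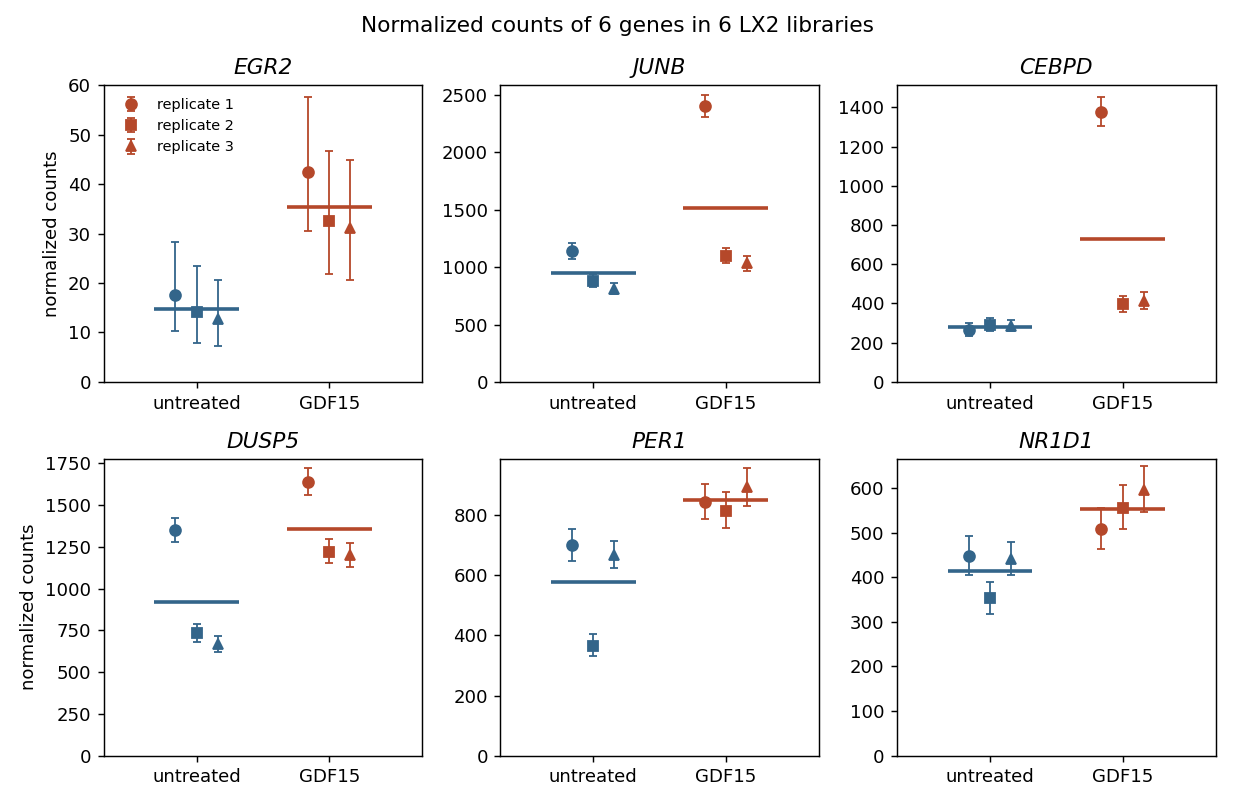
Normalized counts of the 6 genes on linear axes, by group, with 1 point per library (circle, square and triangle for replicates 1, 2 and 3), bars for the 95% counting interval and a horizontal line for the group mean. CEBPD and JUNB stand highest in GDF15 replicate 1, with 1377 and 2401 normalized counts, and PER1 lowest in untreated replicate 2, with 366.

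EGR2 was the least abundant of the genes. With GDF15 it had 42.4, 32.6 and 31.0 normalized counts in replicates 1 to 3, and without it 17.6, 14.2 and 12.7. The groups did not overlap, and GDF15 replicate 1 was the highest library. The mean was 35.3 ± 6.17 in treated and 14.8 ± 2.54 in untreated cells (SD, n = 3), a 2.38-fold ratio. On log2(normalized count + 1) the difference was 1.20 with an SE of 0.23 from limma across all listed features. That fit does not model counting error, so the SE may be too small for a gene with few reads. The authors' deposited table gave EGR2 an unadjusted p of 0.00140.

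These EGR2 values rest on few reads. Each deposited value was a whole multiple of its library's smallest step. Taking 1 step as 1 read gives 41, 29 and 28 reads in the GDF15 libraries and 17, 15 and 16 in the untreated ones. The 95% counting interval ran from 20.6 to 44.9 normalized counts in GDF15 replicate 3 and from 10.3 to 28.2 in untreated replicate 1, so these nearest libraries of the groups could not be separated at this depth. The coefficient of variation between libraries was 17.5% with GDF15 and 17.1% without, against 17.5% and 25.2% from counting alone. A spread of EGR2 between libraries beyond counting error was not detectable at this depth.

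The EGR2 gene (ENSG00000122877) lies on chromosome 10, 62811996 to 62919900, minus strand (GENCODE release 29, GRCh38). RefSeq promoter sequences on GRCh38.p14 matched 4 of the 6 genes, with 3 starts for EGR2 and 1 each for JUNB, PER1 and NR1D1. The 250 bases before each start were searched on both strands for the elements through which such genes are classically induced, and the windows that held a match are shown for EGR2 and PER1. The most downstream EGR2 start has a CArG box, the element bound by serum response factor, at -71 to -62, which 1.16% of 35116 promoter windows hold. The start before it has an E-box, CACGTG, at -30 to -25 (6.34% of windows) and a kappaB site at -130 to -121 (9.96% of windows). Capitals mark these matches, and the sequences read 5′ to 3′ on the strand of the gene.
EGR2 most downstream start, chr10:62816367-62816616, minus strand: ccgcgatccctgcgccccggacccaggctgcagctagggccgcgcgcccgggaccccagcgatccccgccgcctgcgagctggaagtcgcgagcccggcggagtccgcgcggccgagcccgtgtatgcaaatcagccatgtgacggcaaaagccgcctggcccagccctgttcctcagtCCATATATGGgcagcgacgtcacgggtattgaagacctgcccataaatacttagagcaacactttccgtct
EGR2 start before it, chr10:62818776-62819025, minus strand: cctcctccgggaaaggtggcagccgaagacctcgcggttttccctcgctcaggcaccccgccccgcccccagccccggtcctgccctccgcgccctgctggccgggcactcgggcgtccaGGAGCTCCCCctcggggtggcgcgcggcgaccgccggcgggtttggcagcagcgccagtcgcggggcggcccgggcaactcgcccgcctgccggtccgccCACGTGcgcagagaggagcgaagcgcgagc
No match was found in these windows for the cAMP response element TGACGTCA, the AP-1 site TGANTCA, the EGR site GCGGGGGCG or the STAT site TTCNNNGAA, which 1.65%, 6.57%, 4.72% and 6.57% of promoter windows hold. The JUNB and NR1D1 windows held none of the searched elements. A match of letters is not evidence that a factor binds there, and a missing match says nothing about the factor.

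JUNB was abundant, and its difference lay mostly in a single library. Replicates 1 to 3 held 2401, 1099.9 and 1032 normalized counts with GDF15, and 1141, 882 and 812 without it. GDF15 replicate 1 was 2.11 times the next highest library, while GDF15 replicates 2 and 3 lay below untreated replicate 1, so the groups overlapped. The means were 1511 ± 772 and 945 ± 173 (SD, n = 3), a 1.60-fold ratio. Leaving out GDF15 replicate 1 took the log2 ratio of means from 0.68 to 0.17. On log2(normalized count + 1) the limma difference was 0.58 with an SE of 0.36. The deposited unadjusted p in the authors' deposited table was 0.0361.

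At 931 to 2321 reads per library, JUNB was far from the limit of counting. Counting alone would give a coefficient of variation of 2.66% with GDF15 and 3.15% without, and the libraries showed 51.1% and 18.3%. JUNB (ENSG00000171223, chromosome 19, 12791496 to 12793315, plus strand) is a gene of 1 exon. It lies within the span of HOOK2 on the opposite strand, and 14.2% of its exon bases are shared with HOOK2 exons. The use of strand in counting is not given in the sources used here, so reads from these shared bases cannot be assigned. HOOK2 was not among the listed features.

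CEBPD showed the highest ratio of means and the strongest dependence on a single library. Its normalized counts in replicates 1 to 3 were 1377, 397 and 415 with GDF15 against 263, 290.0 and 286 in untreated cells. The groups did not overlap, with the lowest GDF15 library 1.37 times the highest untreated one. GDF15 replicate 1 was 3.32 times the next highest library. The means were 729 ± 561 and 279.7 ± 14.3 (SD, n = 3), a 2.61-fold ratio with a log2 ratio of 1.38. Without GDF15 replicate 1 the log2 ratio was 0.54.

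In untreated cells the spread of CEBPD was that of counting, with a coefficient of variation of 5.12% between libraries against 5.74% from counting alone. With GDF15 it was 76.9% against 3.82%, and 18 of the 274 features listed as higher had a larger one. On log2(normalized count + 1) the limma difference of CEBPD was 1.12 with an SE of 0.47 with all libraries. It was 0.54 with an SE of 0.20 without GDF15 replicate 1, an SE made smaller by leaving out the extreme library. The unadjusted p in the authors' deposited table was 0.000994, rank 10 of the 453 from the lowest. CEBPD (ENSG00000221869, chromosome 8, 47736909 to 47739086, minus strand) is also a gene of 1 exon, and no annotated gene overlaps it.

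**Figure D2:**
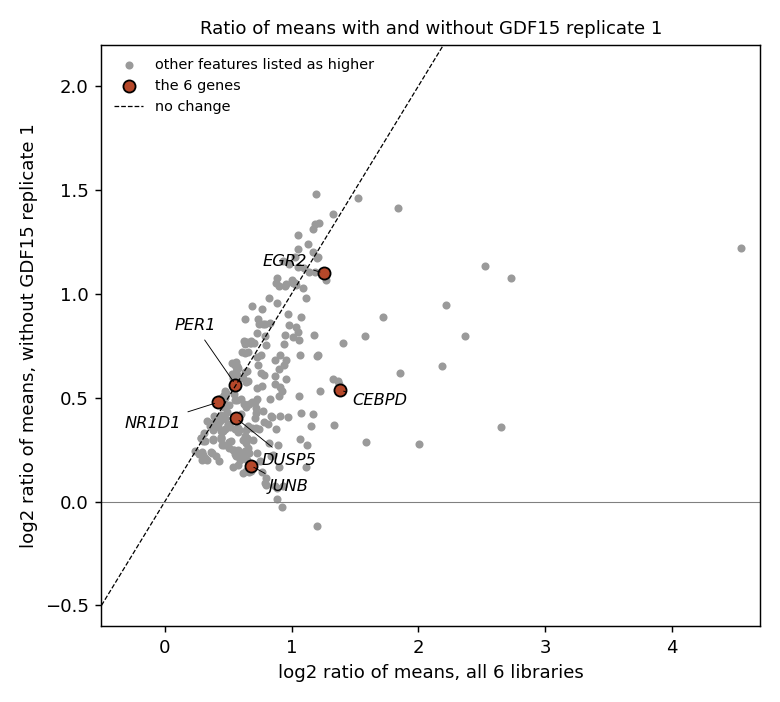
Log2 ratio of group means for the 274 features listed as higher, with all 6 libraries on the horizontal axis and without GDF15 replicate 1 on the vertical axis, 1 point per feature and the dashed line marking equal values. CEBPD goes from 1.38 to 0.54 and JUNB from 0.68 to 0.17, while EGR2 stays near the line at 1.25 and 1.10.

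EGR2, JUNB, CEBPD and DUSP5, 4 of the 6 genes, peaked in GDF15 replicate 1, as did 65.7% of the features listed as higher. Leaving it out lowered the log2 ratio of CEBPD by as much or more than that of all but 17 of the other features listed as higher. For JUNB the same held for all but 47. The median log2 ratio of these 274 features went from 0.70 to 0.48 when it was left out. Normalized counts of all listed features summed to 470046 in that library and to between 279332 and 326126 in the others, sums over a selected part of each library. Whether what sets that library apart bears on CEBPD and JUNB was not tested.

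DUSP5 varied most among untreated cells. The GDF15 replicates 1 to 3 held 1641, 1222 and 1201 normalized counts, and the untreated ones 1350.0, 734 and 667. Untreated replicate 1 exceeded GDF15 replicates 2 and 3, so the groups overlapped, while the other untreated libraries lay well below all GDF15 libraries. The means were 1355 ± 248 and 917 ± 376 (SD, n = 3), a 1.48-fold ratio. The limma difference on log2(normalized count + 1) was 0.62 with an SE of 0.31. Over all libraries the log2 ratio of means was 0.56, and it was 0.95 without untreated replicate 1, 0.40 without GDF15 replicate 1 and 0.38 without untreated replicate 3.

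The coefficient of variation of DUSP5 in untreated cells, 41.0%, was exceeded by 39 of the 274 features listed as higher. Counting alone would give 3.22%. Its unadjusted p in the authors' deposited table, 0.0487, was the highest of the 6 genes and lay next to the threshold of 0.05 that the whole table shares. DUSP5 (ENSG00000138166, chromosome 10, 110497838 to 110511544, plus strand) has 4 exons and no annotated overlapping gene.

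**Figure D3:**
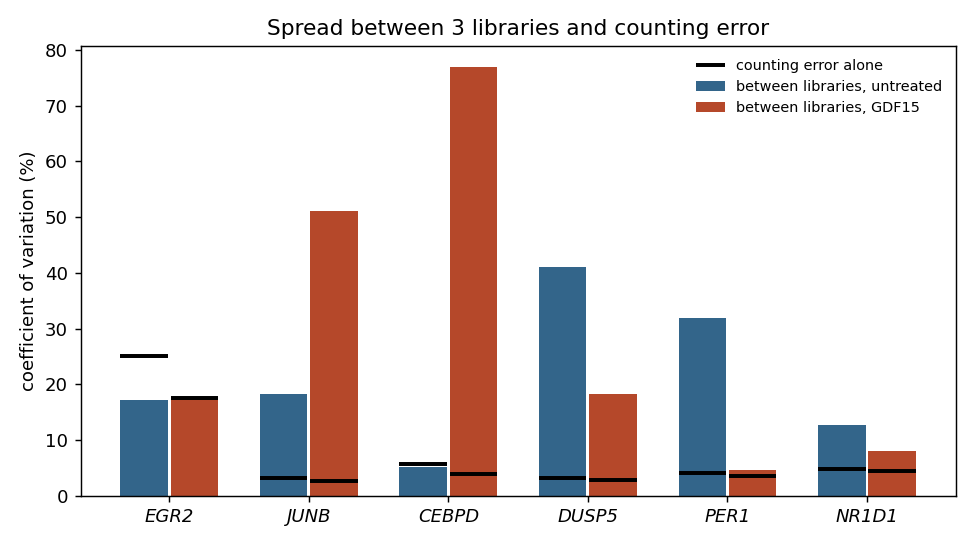
Coefficient of variation between the 3 libraries of each group (bars, in percent) beside the part that counting of reads alone would give (black lines). CEBPD reaches 76.9% with GDF15 and 5.12% without, and EGR2 lies at or under its counting error in both groups.

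The clock genes had the smallest ratios of means, with PER1 at 1.47-fold hardly below DUSP5 at 1.48-fold. On log2(normalized count + 1) the limma difference of JUNB, 0.58, was below that of PER1. Neither clock gene had overlap between groups, as was so for 61.7% of the features listed as higher. PER1 stood at 843, 815 and 892 normalized counts in replicates 1 to 3 with GDF15, and at 699.9, 366 and 667 in untreated cells. The GDF15 libraries lay close together, and untreated replicate 2 stood well below the other untreated libraries. The means were 849.95 ± 39.3 and 577 ± 184 (SD, n = 3), a 1.47-fold ratio with a log2 ratio of 0.56. Without untreated replicate 2 the log2 ratio of means was 0.31. The limma difference on log2(normalized count + 1) was 0.61 with an SE of 0.29 for all libraries and 0.31 with an SE of 0.12 without untreated replicate 2. The SE falls because the most extreme library is left out, so the smaller SE does not make the difference firmer.

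With GDF15 the coefficient of variation of PER1 was 4.62%, near the 3.58% of counting alone, and 259 of the 274 features listed as higher had a larger one. In untreated cells it was 31.9% against 4.0% from counting. The unadjusted p in the authors' deposited table was 0.0269. PER1 (ENSG00000179094) lies on chromosome 17, 8140472 to 8156506, minus strand, and shares 1.11% of its exon bases with the microRNA gene MIR6883 and 0.428% with AC129492.3 on the same strand. Its promoter window holds an E-box, CACGTG, at -173 to -168 and a nuclear receptor half-site, AGGTCA on the other strand, at -144 to -139, which 6.34% and 12.1% of promoter windows hold. The stretch shown, with these matches in capitals, ends where annotated exons begin.
PER1, chr17:8152436-8152654, minus strand: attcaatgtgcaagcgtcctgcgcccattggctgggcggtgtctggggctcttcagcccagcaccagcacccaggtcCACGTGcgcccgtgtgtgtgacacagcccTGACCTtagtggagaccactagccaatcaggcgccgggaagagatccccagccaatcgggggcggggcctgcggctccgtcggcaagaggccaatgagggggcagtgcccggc

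NR1D1 reached 508, 555 and 596 normalized counts in replicates 1 to 3 with GDF15, and 447, 353 and 440.2 in untreated cells. Each GDF15 library lay above each untreated library, the nearest being GDF15 replicate 1 at 1.14 times untreated replicate 1. The means were 553 ± 44.2 and 413 ± 52.7 (SD, n = 3), a 1.34-fold ratio. Over all libraries its log2 ratio of means was 0.42, and it ran from 0.32 without untreated replicate 2 to 0.48 without untreated replicate 1. The limma difference on log2(normalized count + 1) was 0.42 with an SE of 0.20. The unadjusted p in the authors' deposited table was 0.0147, lower than that of PER1 although the ratio was smaller.

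NR1D1 varied by 8.0% between GDF15 libraries and by 12.7% between untreated libraries, against 4.44% and 4.73% from counting. NR1D1 (ENSG00000126368, chromosome 17, 40092787 to 40100725, minus strand) overlaps THRA, the thyroid hormone receptor alpha gene, tail to tail on the opposite strand, over 1081 bases. These include 263 exon bases of both genes, 9.49% of the exon bases of NR1D1, whose reads cannot be assigned without strand. THRA was not among the listed features. Both clock genes shared their lowest library, untreated replicate 2, which was also lowest for 67.5% of the features listed as higher.

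Without the authors' scaling, the log2 ratios of means of the listed features shifted by a median of -0.24. The log2 ratio of mean reads was 0.30 for PER1 and 0.16 for NR1D1. Relative to that shift they were 0.54 and 0.41. Taking off the shift nearly restores the scaled values by construction, so it is no check of the scaling. That of DUSP5 was 0.36, or 0.61 relative to the shift.

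**Figure D4:**
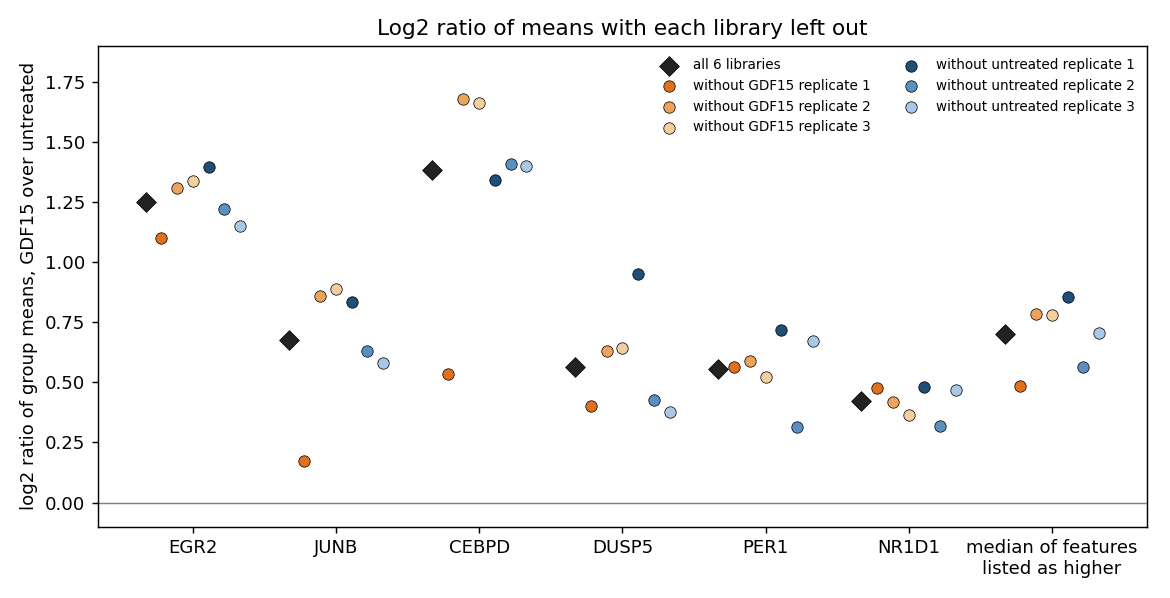
Log2 ratio of group means, GDF15 over untreated, for each gene and for the median of the features listed as higher, with all 6 libraries (diamond) and with each library left out (circles). JUNB has the lowest value, 0.17 without GDF15 replicate 1, and EGR2 stays between 1.10 and 1.39.

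Among the genes, 4 of 6 had no overlap between groups, against 61.7% of the features listed as higher, and 2 of 6, EGR2 and CEBPD, were at least 2-fold higher by the means, against 23.4%. Without untreated replicate 1, the library in which DUSP5 and JUNB reached into the GDF15 range, 6 of 6 had no overlap. Leaving a library out can only remove overlap, and the matching share of the features listed as higher was not analysed here. The median log2 ratio of those features rose from 0.70 to 0.85 in that setting, so 6 of 6 is not read as particular to these genes. By size of the log2 ratio of means, CEBPD and EGR2 ranked 16 and 24 among the 274 features listed as higher. JUNB, DUSP5, PER1 and NR1D1 ranked 146, 194, 199 and 247.

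Per kilobase of annotated exon, JUNB had the highest level and EGR2 the lowest. The mean level in untreated cells was 519 ± 94.97 normalized counts per kilobase for JUNB and 351 ± 144 for DUSP5. NR1D1 had 149 ± 19.0, CEBPD 128 ± 6.58 and PER1 82.5 ± 26.3, and EGR2 had 4.02 ± 0.688 (SD, n = 3). The ranges of mean ± SD overlapped for the neighbours JUNB and DUSP5 and for NR1D1 and CEBPD, while PER1 and EGR2 lay apart from their neighbours. With GDF15 the levels were 830.2 ± 424 for JUNB, 518 ± 94.7 for DUSP5, 335 ± 258 for CEBPD, 199.5 ± 15.95 for NR1D1, 121 ± 5.61 for PER1 and 9.58 ± 1.67 for EGR2. CEBPD thus stood above NR1D1 by its mean with GDF15, but by less than its spread. That mean was raised by GDF15 replicate 1, with 1377 normalized counts of CEBPD against 397 and 415 in replicates 2 and 3. The change of order is therefore not read as shared by the GDF15 libraries.

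The genes of the same pathways that were listed, the 6 genes included, were all higher, as were 60.5% of all listed features. The share of all measured genes that were listed is unknown, so the counts below do not show whether a list holds more or fewer than others. Of 45 immediate early and delayed early genes, 5 were listed, EGR2, JUNB, MAFF, SOCS3 and TRIB1, with a median log2 ratio of means of 0.68 against 0.70 over all features listed as higher. Of 27 AP-1 and C/EBP family genes, 3 were listed, CEBPD, JUNB and MAFF, with a median of 0.72. Of 21 MAP kinase feedback genes DUSP5 alone was listed, and of 26 circadian clock genes 3 were, PER1, NR1D1 and CIART, with a median of 0.56. None of these had an adjusted p under 0.05 in the authors' deposited table. The other genes of these lists, FOS, EGR1, DUSP1, PER2 and BMAL1 among them, were not analysed here.

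The 4 listed genes outside the set, MAFF, SOCS3, TRIB1 and CIART, were highest in GDF15 replicate 1. MAFF, a small MAF factor that lacks an activation domain, had 2089, 1185 and 1051 normalized counts in replicates 1 to 3 with GDF15 against 1223, 689.9 and 707 in untreated cells, with overlap. SOCS3, an inhibitor of cytokine receptor signalling through JAK and STAT, had 1359, 626 and 671 against 719, 449 and 523, also with overlap. TRIB1, a pseudokinase that directs C/EBP alpha to degradation, had 382, 291 and 282 against 258, 203 and 208, without overlap. Leaving out GDF15 replicate 1 took the log2 ratio of means of SOCS3 from 0.65 to 0.20, that of MAFF from 0.72 to 0.36 and that of TRIB1 from 0.51 to 0.36. CIART, a repressor of CLOCK and BMAL1, had 416, 256 and 315 against 285, 166 and 163, and overlapped through untreated replicate 1.

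**Figure D5:**
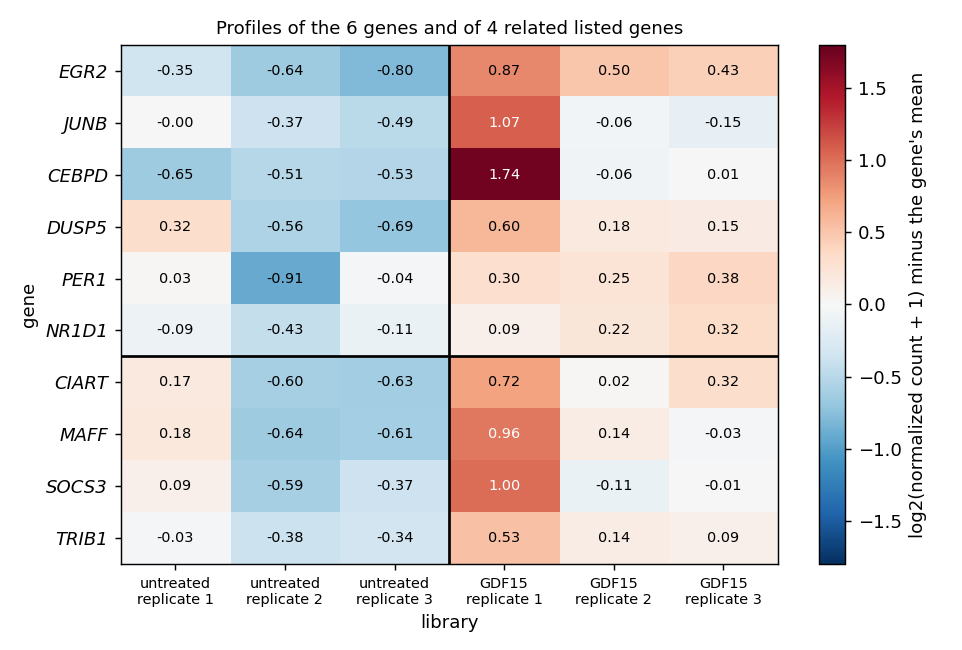
Deviation of log2(normalized count + 1) from each gene's mean over 6 libraries, with the 6 genes above the line and the 4 other listed genes of their pathways below it. CEBPD departs most, by 1.74 in GDF15 replicate 1, and PER1 has its lowest value, -0.91, in untreated replicate 2.

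Profiles over the 6 libraries were compared by the root mean square difference of centred log2(normalized count + 1), where 0 means the same profile. PER1 and NR1D1 were the most alike of the 15 pairs, at 0.22, and CEBPD and NR1D1 the least, at 0.75. The measure is not scaled, so genes that vary little lie close to each other. Other features lay nearer to both clock genes, MAPK8IP3 at 0.07 from PER1 and TCIRG1 at 0.05 from NR1D1, so 0.22 is not read as a shared clock profile. The median distance to the other named features compared was 0.75 for CEBPD, 0.53 for PER1 and 0.48 for NR1D1, so CEBPD lay no further from NR1D1 than from a typical feature. DUSP5 lay nearer to CIART, at 0.12, than to any of the other 5 genes. These distances are descriptions over 6 libraries, and all features share the group difference for which they were listed.

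Among 417 other named features, the nearest to JUNB were IRF1, a transcription factor of the interferon response, at 0.07, P4HA2, a collagen prolyl hydroxylase, at 0.08, and DRAM1, a lysosomal membrane protein, at 0.12. The nearest to CEBPD were DHX58, an RNA helicase of antiviral sensing, ZC3H12A, an RNase that degrades cytokine mRNAs, and TNFAIP2, at 0.24 each. DUSP5 was nearest to ENO2, an enolase of glycolysis, at 0.04, then CIART and FUT11. PER1 was nearest to MAPK8IP3, a scaffold of JNK signalling, at 0.07, then RNF44 and RTEL1 at 0.09 each. NR1D1 was nearest to TCIRG1, a subunit of the vacuolar proton pump, at 0.05, then C1QTNF6 and PCGF3 at 0.07 each. EGR2, the gene with the fewest reads, was nearest to the clone-named transcripts Z95114.3 and AL645608.8, at 0.17 and 0.21, and to RFX8 at 0.24.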

How the data were processed

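RNA of 6 LX2 libraries was measured, 3 per group. Build GRCh38, DESeq2, featureCounts, Subread 1.5.2, STAR 2.5.2b and Trimmomatic 0.36 are named, per the submitters' processing notes. Their order, settings, annotation and use of strand are not stated there. The deposited signal values are counts that the authors normalized, with 1 column per library. All values were whole multiples of 1 step per library within 0.001 of a step (steps 0.792 to 1.12). Reads and exact 95% Poisson intervals were derived by taking 1 step as 1 read. PCR reads are not independent molecules, so intervals cover counting error only. Full depth is unknown, since only features with a deposited p-value under 0.05 are listed. The listed features held 290279 to 454387 reads per library. The deposited log2 fold changes, GDF15 over untreated, differed from the log2 ratios of means of the 6 genes by at most 0.0123.

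Limma 3.58.1 in R 4.3.3 was fitted to log2(normalized count + 1) of all 453 features without a replicate block and tried on simulated counts. The simulation had no selection of features on p and no outlying library, so it does not show that the SE holds for these features. Its SE is used and its p for single genes is not. The SE borrows the spread of features that were themselves selected on this contrast, so it may be too small. On that scale the fold change of a low gene is understated. Exons came from GENCODE 29, promoters from RefSeq. Members and lists were chosen with earlier results of these data known. The rule for named genes took the 6 genes, all listed genes of 4 pathway lists, and for each gene the 3 nearest named features with a mean of at least 20. Protein patterns were planned and not analysed here. Other steps used matplotlib 3.10.9, scipy 1.17.1, numpy 2.4.6 and pandas 2.3.3 in Python 3.11.15.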

Additional observations from a re-analysis of the deposited data

How the results depend on the processing

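The sign of the difference was kept by all 6 genes under every alternative run, which is no sign of stability, since the genes were selected on this difference. The alternatives were each library left out, GDF15 replicate 1 and untreated replicate 2 left out together, medians, geometric means, reads without the authors' scaling, the deposited log2 fold change, pseudocounts of 0.1 and 5, and a minimum mean of 10, which all 453 features met. The log2 ratio of means of CEBPD ran from 0.54 to 1.68 over the libraries left out, was 0.54 as a ratio of medians, and was 0.56 with both libraries left out. With both left out, that of JUNB was 0.13. That of NR1D1 was 0.16 in reads without scaling. The other 61 of 66 alternative log2 ratios of means moved by less than the gene's own SD between libraries on the log2 scale. That SD includes the library left out, so a gene with an extreme library can move far and still count among the 61. JUNB without GDF15 replicate 1 is such a case, going from 0.68 to 0.17 with an SD of 0.51. By limma, 0 features had an adjusted p under 0.05 over the listed features in any setting, against 104 higher and 55 lower at an unadjusted p under 0.05 with all libraries. Those counts were 55 higher without untreated replicate 2, 57 higher without untreated replicate 3, 26 lower without GDF15 replicate 2 and 24 lower without GDF15 replicate 3.

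Libraries with the same number correlated in their deviations from the group means by 0.114, 0.217 and -0.048 for numbers 1, 2 and 3. These values do not settle whether the numbers mark pairs. The first 2 of these correlated best with their own number and the third did not. With a replicate block the limma difference of EGR2 was 1.20 with an SE of 0.20, that of JUNB 0.58 with an SE of 0.25, and 161 higher and 68 lower features had an unadjusted p under 0.05. Count models (edgeR, DESeq2) on recovered reads were planned and not run, since the columns held too few low values for the check that they give whole reads, and were treated as signal. Read numbers and counting intervals given here therefore rest on taking 1 step as 1 read, which that check did not settle. EGR2 is the gene that depth limits, at 15 to 41 reads per library. The number of genes without overlap ran from 4 to 6 over the libraries left out and was 4 without both, which was added after seeing the data. The matching share of the features listed as higher was not analysed for these settings.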
